A study of Mus musculus with 8 samples.

Results

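IGHV14, also called SM7, is a small family of variable (VH) gene segments of the mouse immunoglobulin heavy chain. It was described here through the read counts of its 4 genes, IGHV14-1 to IGHV14-4, which are all genes of that name among the 159 IGHV genes with a read. It was also described through 95 assembled rearrangements whose listed V genes were all IGHV14, out of 3882 complete heavy-chain rearrangements. The samples were pro-B cells, sorted as B220+ Cd43+ IgM- CD25- cells, from bone marrow of 8-week-old untreated mice, with 4 Setd2 knockout samples and 4 control samples. The labels name no strain, allele, Cre driver or animal for either group, so each p-value reflects spread among samples that may in part be technical. All 8 samples carried 1 sequencing batch.

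A VH gene holds a short leader exon and a V exon, and its V exon is joined in pro-B cells to a D and a J segment by the RAG recombinase. The junction, called CDR3, runs from the last cysteine codon of the V exon to a tryptophan codon of the J segment and is the most variable part of the antibody's binding site. The middle VH families lie between the families next to the D segments and the large IGHV1 family, and distant VH genes are brought near the D segments by contraction of the locus. Setd2 encodes a methyltransferase of histone H3. Whether knockout and control cells differed in their use of this family was the question of the comparison.

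Heavy-chain locus reads numbered 54626, 41368, 12102 and 100600 in knockouts 1 to 4 and 89908, 89432, 64488 and 76161 in controls 1 to 4. Reads on IGHV genes, over which all shares of reads below are taken, numbered 25533, 22369, 1637 and 56542 in the knockouts and 39035, 53071, 35505 and 45241 in the controls. Knockout 3 was the shallowest by far, with 64 IGHV14 reads in all. The labelled stage was checked against constant regions and light chains. Reads of the class-switched isotypes IGHG, IGHA and IGHE, which mark later B-lineage cells, made up 31.8%, 41.1%, 6.69% and 44.2% of constant-region reads in knockouts 1 to 4 and 51.0% to 57.6% in the controls, with 6 of 6 switched genes detected in every sample. IGHD stood at 0.467% to 0.759% in the knockouts and 0.651% to 0.977% in the controls. Complete light-chain CDR3 sequences numbered 82 to 248 per knockout and 516 to 727 per control. These marks of later B-lineage cells go against a pure pro-B label. The switched share and the number of light-chain CDR3s were lower in every knockout than in every control, and their part in the results below was not tested. In such bulk samples, fewer cells using a gene and less RNA per cell cannot be told apart.

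The 4 germline V exons are nearly the same, so their sequences set how well reads can be told apart. Each V exon is exon 2 of its gene and has 305 bases, 21 of which differ among the 4 genes, and pairs of V exons are 95.1% to 97.4% identical. The stretch from base 91 to base 210 of the V exon holds 13 of these positions and is shown for that reason. The sequences are from GENCODE M21 transcripts on GRCm38, which is the build mm10 of the deposited files, on the minus strand, with capitals at the positions that differ among the 4 genes.
IGHV14-1, chr12:113932048-113932167: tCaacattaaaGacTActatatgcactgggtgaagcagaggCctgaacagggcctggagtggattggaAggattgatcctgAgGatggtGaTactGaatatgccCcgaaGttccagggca
IGHV14-2, chr12:113994564-113994683: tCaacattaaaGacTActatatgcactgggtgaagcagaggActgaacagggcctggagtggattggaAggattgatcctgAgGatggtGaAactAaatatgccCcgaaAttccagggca
IGHV14-3, chr12:114059940-114060059: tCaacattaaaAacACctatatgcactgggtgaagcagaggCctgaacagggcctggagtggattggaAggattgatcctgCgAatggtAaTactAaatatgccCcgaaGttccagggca
IGHV14-4, chr12:114176533-114176652: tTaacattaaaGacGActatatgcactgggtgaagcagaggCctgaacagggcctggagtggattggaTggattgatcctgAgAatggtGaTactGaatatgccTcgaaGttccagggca

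In this stretch IGHV14-4 has a base of its own at 4 positions, IGHV14-3 at 5, IGHV14-2 at 3 and IGHV14-1 at 0. The last 90 bases of the V exon hold 5 differing positions and are shown because they end in the first codons of the CDR3.
IGHV14-1, chr12:113931953-113932042: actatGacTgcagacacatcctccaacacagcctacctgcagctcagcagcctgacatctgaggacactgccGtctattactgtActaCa
IGHV14-2, chr12:113994469-113994558: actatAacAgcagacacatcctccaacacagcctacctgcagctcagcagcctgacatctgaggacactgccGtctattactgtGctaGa
IGHV14-3, chr12:114059845-114059934: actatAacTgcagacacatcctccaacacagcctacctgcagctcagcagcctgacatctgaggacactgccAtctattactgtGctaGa
IGHV14-4, chr12:114176438-114176527: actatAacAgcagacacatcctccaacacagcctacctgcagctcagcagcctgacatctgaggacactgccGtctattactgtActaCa

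The cysteine codon and the codon after it read TGTACT in germline IGHV14-1 and IGHV14-4 and TGTGCT in IGHV14-2 and IGHV14-3. Of 146 V genes with bases at these places, TGTACT stands in 2, or 1.37%, both of them IGHV14, and TGTGCT in 13, or 8.90%. A rearranged IGHV14 CDR3 therefore shows at its start which pair of genes it resembles, unless its end was trimmed or mutated. Error-free 75-base windows, the read length, were found in no other V gene for 231 of 231 places in the IGHV14-3 exon, 216 in IGHV14-1, 200 in IGHV14-4 and 198 in IGHV14-2. Reads of the remaining windows fit more than 1 gene, and how the authors' counting divided them is not stated in the labels or headers.

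The 4 genes stand on chromosome 12 over 245 kb, with 12 other counted VH genes between the first and the last. Counted from the D segments, IGHV14-1, IGHV14-2, IGHV14-3 and IGHV14-4 were numbers 29, 33, 37 and 44 of the 159 VH genes. The intervals over which the authors counted reads were chr12:113931953-113932246 for IGHV14-1, chr12:113994469-113994898 for IGHV14-2, chr12:114059845-114060273 for IGHV14-3 and chr12:114176438-114176867 for IGHV14-4. The IGHV14-1 interval covers only 294 bases of its V exon and no leader exon, whereas the other intervals hold 351 exonic bases each and the intron between the exons. Levels are compared between the genes per exonic base for this reason. Abundance ranks, shares of reads and ratios of reads below use raw reads and are not corrected for length.

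The share of VH reads taken by the whole family did not separate the groups. IGHV14 reads made up 7.05%, 7.51%, 3.91% and 1.23% of IGHV reads in knockouts 1 to 4, against 6.30%, 5.33%, 5.68% and 4.21% in controls 1 to 4. Knockouts 1 and 2 were above every control and knockouts 3 and 4 below every control, so the knockouts surrounded the controls. The means were 4.93% ± 2.94 in knockouts and 5.38% ± 0.879 in controls (SD, n = 4 each), a difference of -0.458 percentage points by an exact two-sided permutation test over 70 arrangements (p = 0.771, smallest possible p 0.0286). Without knockout 4 the difference was 0.774 percentage points, so its direction rested on that sample.

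Within the family, IGHV14-2 led in every control, and IGHV14-4 took its place in knockout 1. In level per exonic length, IGHV14-2 held 9.40 ± 2.23 percent of IGHV reads per 1000 exonic bases in controls (SD, n = 4), followed by IGHV14-3 at 2.60 ± 1.12, IGHV14-1 at 1.91 ± 0.712 and IGHV14-4 at 1.74 ± 0.428. The last 3 genes lay within each other's spread. In knockouts the same quantity was 6.32 ± 7.21 for IGHV14-4, 5.46 ± 3.55 for IGHV14-2, 1.67 ± 1.51 for IGHV14-1 and 0.855 ± 0.687 for IGHV14-3 (SD, n = 4), a quantity that spread widely between samples. IGHV14-2 was above IGHV14-1 in all 4 knockouts, IGHV14-1 was above IGHV14-3 in 3 of 4, and IGHV14-4 was above IGHV14-2 in knockout 1 alone.

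**Figure D1:**
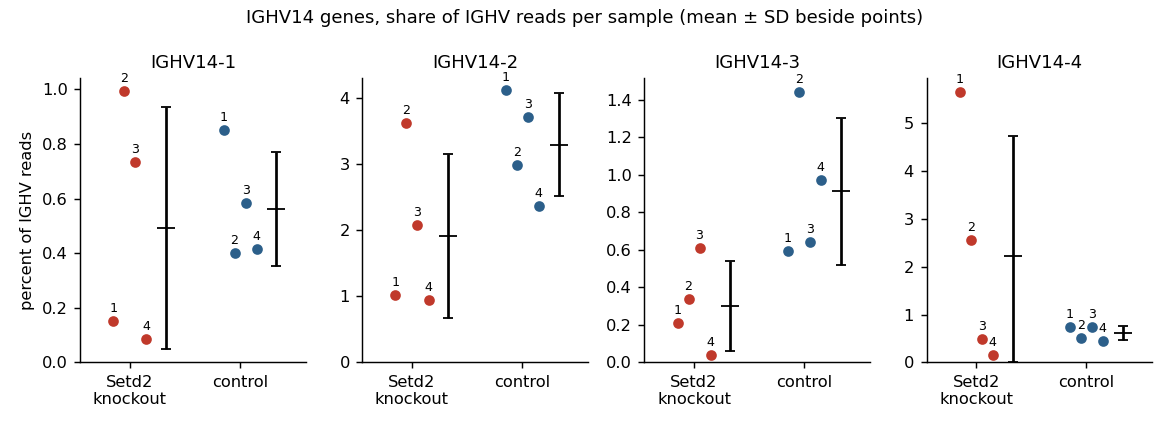
Share of IGHV reads on each of the 4 IGHV14 genes (y axis, percent, linear and on its own scale per gene), with Setd2 knockout samples at left, control samples at right, 1 numbered point per sample, and mean ± SD (n = 4, lower bar stopped at 0) beside the points. IGHV14-4 stands at 5.66% and 2.56% in knockouts 1 and 2 and between 0.458% and 0.744% in the controls.

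IGHV14-4, the gene farthest from the D segments, had 1445, 573, 8 and 89 reads in knockouts 1 to 4, against 286, 267, 264 and 207 reads in controls 1 to 4. Its share of IGHV reads was 5.66%, 2.56%, 0.489% and 0.157% in the knockouts, against 0.733%, 0.503%, 0.744% and 0.458% in the controls. Knockouts 1 and 2 were above all controls, knockout 4 was below all of them, and knockout 3 lay among them with a 95% Wilson interval of 0.248% to 0.961%, which covers counting error only. By abundance it was VH gene number 4 in knockout 1 and number 9 in knockout 2, and between number 46 and number 57 in the controls. The edgeR quasi-likelihood test, with all IGHV reads as library size, gave a log2 fold change of 1.87 (SE 0.93, adjusted p = 0.185 by Benjamini-Hochberg over 130 genes). DESeq2 gave 2.86 (SE 0.89, adjusted p = 0.0332), a call that edgeR did not make, and over all alternatives the adjusted p ran from 0.0332 to 0.683. The edgeR value was 0.83 without knockout 1, so its size rested largely on that sample.

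IGHV14-3 showed the opposite direction. It had 54, 76, 10 and 22 reads in knockouts 1 to 4, against 231, 766, 228 and 440 reads in controls 1 to 4. Its share of IGHV reads was 0.211%, 0.340%, 0.611% and 0.0389% in the knockouts, against 0.592%, 1.44%, 0.642% and 0.973% in the controls. Only knockout 3 reached into the range of the controls, from 10 reads with a Wilson interval of 0.332% to 1.12%. The log2 fold change was -1.70 by edgeR (SE 0.84, adjusted p = 0.185) and -0.99 by DESeq2 (SE 0.60, adjusted p = 0.318). With all heavy-chain locus reads as library size the edgeR value was -2.40 and passed (adjusted p = 0.0465), and over all alternatives the adjusted p ran from 0.0465 to 0.390. At that library size edgeR called 26 of the 130 VH genes tested, against 0 with IGHV reads as library size.

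IGHV14-2, the leading gene of the family in controls, had 261, 810, 34 and 537 reads in knockouts 1 to 4, against 1612, 1585, 1319 and 1070 reads in controls 1 to 4. Its share was 1.02%, 3.62%, 2.08% and 0.950% of IGHV reads in the knockouts, against 4.13%, 2.99%, 3.71% and 2.37% in the controls. Knockout 2 lay inside the range of the controls and the other knockouts lay below it. The log2 fold change was -0.78 by edgeR (SE 0.69, adjusted p = 0.489), and its direction turned to 0.16 with TMM scaling and 0.14 with DESeq2. By abundance IGHV14-2 was VH gene number 3, 6, 2 and 7 in controls 1 to 4.

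IGHV14-1, the member nearest to the D segments, had 39, 222, 12 and 48 reads in knockouts 1 to 4, against 332, 212, 207 and 188 reads in controls 1 to 4. Its share was 0.153%, 0.992%, 0.733% and 0.0849% in the knockouts, against 0.851%, 0.399%, 0.583% and 0.416% in the controls. The knockouts spread wider than the controls on both sides. The log2 fold change was -0.23 by edgeR (SE 0.83, adjusted p = 0.908), turning to 0.50 with TMM scaling and 0.48 with DESeq2.

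All 4 members passed the filter of at least 10 reads over all samples, and 0 of the 4 were called by edgeR at an adjusted p under 0.05. Of all 130 VH genes tested, edgeR called 0, or 0%. At an unadjusted p under 0.05 edgeR gave 0 of 4 IGHV14 genes, beside 34 genes lower in knockouts, or 26.2% of the 130, and 2 higher, or 1.54%. DESeq2 called 1 of the 4, IGHV14-4, beside 5 of 130, or 3.85%. All knockouts lay below all controls for 0 of 4 IGHV14 genes and for 32 of 130 VH genes, or 24.6%, and all knockouts lay above all controls for 0 of 130, or 0%. The 4 log2 fold changes had a median of -0.51, with 1 above and 3 below 0, beside a median of -0.82 over all 130 genes. With TMM scaling the medians were 0.33 for IGHV14 and 0.18 for all genes, and with DESeq2 they were 0.31 and 0.20, so the scaling shifted the whole set by about as much as the family.

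**Figure D2:**
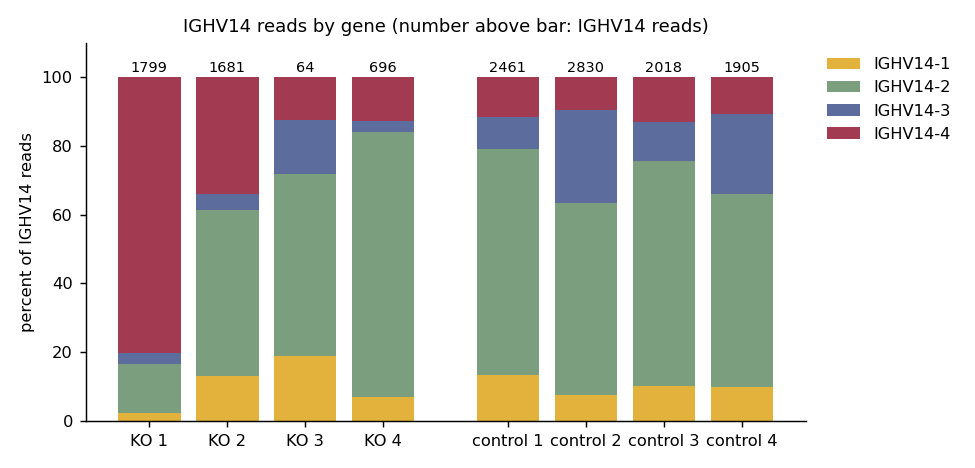
IGHV14 reads divided among the 4 genes (y axis, percent of IGHV14 reads) in each sample, knockouts (KO) at left and controls at right, with the number of IGHV14 reads above each bar. IGHV14-4 fills 80.3% of the bar of knockout 1 and 34.1% of that of knockout 2, against 9.43% to 13.1% in the controls.

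Shares within the family remove the scaling by other VH genes. IGHV14-4 made up 80.3%, 34.1%, 12.5% and 12.8% of IGHV14 reads in knockouts 1 to 4, against 11.6%, 9.43%, 13.1% and 10.9% in controls 1 to 4 (exact permutation p = 0.0857, adjusted 0.171 over the 4 genes). Knockouts 3 and 4 were inside the controls' range, so the difference lay in knockouts 1 and 2. IGHV14-3 made up 3.002%, 4.52%, 15.6% and 3.16% in the knockouts, against 9.39%, 27.1%, 11.3% and 23.1% in the controls (exact permutation p = 0.0857, adjusted 0.171). Knockouts 1, 2 and 4 were below every control, and knockout 3, with 10 of 64 reads and a Wilson interval of 8.71% to 26.4%, was not. Shares within the family are parts of 1 total, so a high IGHV14-4 share, as in knockout 1, in itself lowers the shares of the other genes. The IGHV14-4 and IGHV14-3 shares are therefore not independent of each other. In knockout 4, though, IGHV14-3 was below every control at 3.16% while IGHV14-4, at 12.8%, was inside the controls' range.

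IGHV14-2 made up 14.5%, 48.2%, 53.1% and 77.2% of IGHV14 reads in knockouts 1 to 4, against 65.5%, 56.0%, 65.4% and 56.2% in controls 1 to 4 (exact permutation p = 0.486). IGHV14-1 made up 2.17%, 13.2%, 18.8% and 6.90% in the knockouts, against 13.5%, 7.49%, 10.3% and 9.87% in the controls (exact permutation p = 0.971). Neither gene separated the groups, and for both the knockouts spread wider. The ratio of IGHV14-4 to IGHV14-3 reads, compared on the log2 scale, was 7.26 times higher in knockouts than in controls by geometric means. The fold was 4.17 without knockout 1 and 13.4 without knockout 3, and no test is given because the ratio was chosen after the values of both genes were seen.

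Along the chromosome, the neighbours of IGHV14-4 did not share its direction with all IGHV reads as library size, and those of IGHV14-3 did. Other scalings were not compared for the neighbours. With this library size 97 of all 130 VH genes lay below 0, so a neighbour below 0 was the common case. The tested VH genes next to IGHV14-4 were IGHV7-3, 23.3 kb nearer to the D segments, with a log2 fold change of -0.43 (SE 0.79), and IGHV3-3, 20.001 kb farther, with -3.45 (SE 1.297). Neither passed in edgeR, with adjusted p of 0.774 and 0.118, and both fold changes lay below 0. IGHV11-2 and IGHV9-1 on the sides of IGHV14-3 were at -1.55 (SE 0.999) and -1.49 (SE 0.84), the same direction as IGHV14-3 at -1.70, with edgeR adjusted p of 0.329 and 0.257. IGHV7-1 and IGHV4-1, around IGHV14-1, were at 0.64 (SE 0.91) and -0.20 (SE 1.24), and IGHV11-1 and IGHV4-2, around IGHV14-2, at -0.69 (SE 1.27) and -1.03 (SE 1.05). Some of these neighbours had very few reads. Mean shares of IGHV reads in knockouts and controls were 0.000442% and 0.0129% for IGHV3-3, 0.00308% and 0.00571% for IGHV11-1, and 0.00646% and 0.0231% for IGHV11-2.

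**Figure D3:**
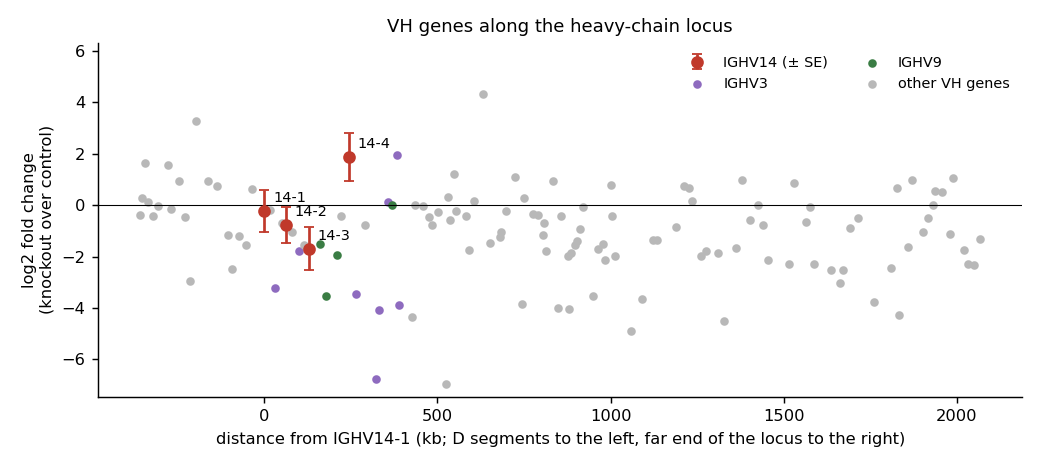
The log2 fold change of knockout over control by edgeR (y axis) for 130 VH genes against distance from IGHV14-1 (x axis, kb), with IGHV14 in red (± SE), IGHV9 and IGHV3 in colour and other VH genes in grey. IGHV14-4 at 1.87 lies above 0 and IGHV14-3 at -1.70 below, while 3 of 4 genes of IGHV9 and 6 of 8 of IGHV3 lie below 0 at this library size.

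The other middle families were used for comparison, as 29 tested genes of IGHV3, 4, 6, 7, 9 to 13 and 15. Their median log2 fold change was -0.78, with 7 above and 22 below 0, and 9 of 29 had all knockouts below all controls. Over all 130 genes the median was -0.82, with 33 above and 97 below 0 and 32 with all knockouts below all controls. The median of the 29 genes turned to 0.28 with TMM scaling and 0.31 with DESeq2. IGHV9, a family of 4 tested genes interspersed with IGHV14, made up 1.07%, 1.86%, 0.855% and 1.19% of IGHV reads in knockouts 1 to 4, against 2.75%, 3.55%, 6.61% and 5.999% in controls 1 to 4. Every knockout was below every control for IGHV9, which was not so for IGHV14. The ratio of IGHV14 to IGHV9 reads, on the log2 scale, was 1.75 ± 1.17 in knockouts and 0.26 ± 0.78 in controls (SD, n = 4 each), a fold of 2.79 that did not pass (exact permutation p = 0.0857, adjusted 0.223 over 13 readouts). IGHV3, with 8 tested genes, made up 2.71%, 9.11%, 3.85% and 1.26% of IGHV reads in the knockouts, against 5.36%, 4.49%, 5.50% and 4.94% in the controls. The log2 ratio of IGHV14 to IGHV3 differed by 0.20 between knockouts and controls (exact permutation p = 0.914). The ratios to IGHV9 and to IGHV3 were not planned beforehand, and the 13 readouts include these and other unplanned ones.

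The VH genes whose share followed that of the IGHV14 family most closely over the 8 samples were IGHV1-34, IGHV2-2, IGHV3-6, IGHV1-62 and IGHV2-4. Their Pearson r was 0.98, 0.81, 0.79, 0.79 and 0.78 on the scale of log2(percent + 0.01), among 40 genes with at least 10 reads in every sample. These are descriptions over samples that share 1 total of IGHV reads per sample, and no test was made. IGHV1-34 held 1.11% ± 0.514 in knockouts and 1.18% ± 0.171 in controls (SD, n = 4 each).

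The assembled rearrangements give a second view of the family, since each distinct complete CDR3 sequence, a clonotype, is taken as a joining event. IGHV14 clonotypes numbered 7, 7, 1 and 4 in knockouts 1 to 4, against 16, 25, 19 and 16 in controls 1 to 4. Every knockout was below every control. On the scale of log2(number + 1) the difference was -1.97, a fold of 0.255 (exact permutation p = 0.0286, the smallest possible, adjusted 0.223 over 13 readouts). Clonotypes of all families together numbered 194, 248, 73 and 226 in the knockouts, against 855, 820, 665 and 801 in the controls, so the whole set was smaller in the knockouts too. As a share of all complete clonotypes, IGHV14 held 19 of 741 or 2.56% in knockouts and 76 of 3141 or 2.42% in controls. Of clonotypes whose listed V genes belonged to 1 family, IGHV14 made up 5.15%, 3.65%, 1.96% and 2.21% in knockouts 1 to 4, against 2.64%, 4.30%, 3.72% and 2.63% in controls 1 to 4 (exact permutation p = 0.971).

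**Figure D4:**
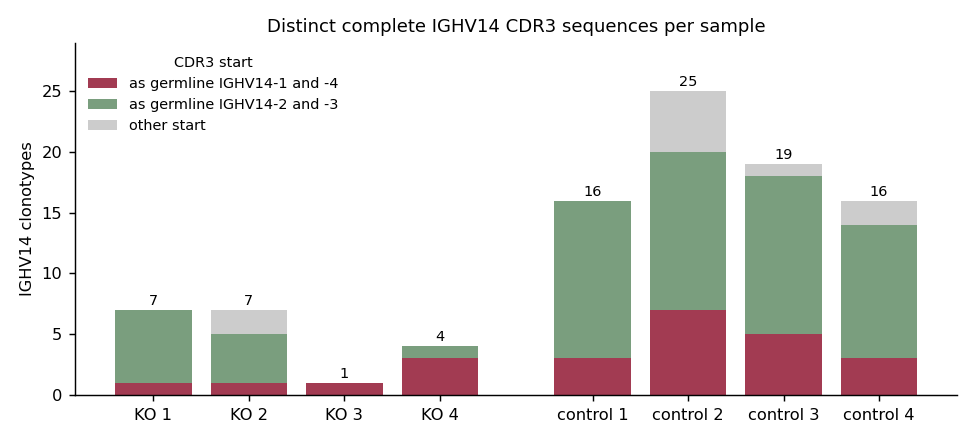
Number of distinct complete IGHV14 CDR3 sequences (y axis) in each sample, knockouts (KO) at left and controls at right, divided by the first bases of the CDR3 as in the germline genes. Knockouts had 7, 7, 1 and 4 IGHV14 clonotypes and controls 16 to 25, and most control CDR3s began as IGHV14-2 and IGHV14-3 do.

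The start of the CDR3 sorted these clonotypes by germline pair. It read TGTACT, as in IGHV14-1 and IGHV14-4, in 1, 1, 1 and 3 IGHV14 clonotypes of knockouts 1 to 4, against 3, 7, 5 and 3 in controls 1 to 4. It read TGTGCT, as in IGHV14-2 and IGHV14-3, in 6, 4, 0 and 1 of the knockouts, against 13, 13, 13 and 11 of the controls. In controls 18 of 76 clonotypes, or 23.7%, began with TGTACT, beside 16.9% to 25.1% of the IGHV14 reads that the segment counts put on IGHV14-1 and IGHV14-4. In knockout 1 these genes held 82.5% of IGHV14 segment reads, whereas 1 of 7 clonotypes began with TGTACT, or 14.3% with a Wilson interval of 2.57% to 51.3%. In knockout 2 they held 47.3% of the segment reads and again 1 of 7 clonotypes. Knockouts 3 and 4 went the other way, with 31.3% and 19.7% of the segment reads beside 1 of 1 and 3 of 4 clonotypes. Wilson intervals of the clonotype share were 2.57% to 51.3%, 20.7% to 100% and 30.1% to 95.4% in knockouts 2, 3 and 4. Near-identical clonotypes were each counted, and they were 4 of 7 in knockout 2 and 2 of 4 in knockout 4. The shares in knockouts thus rest on very few sequences.

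The excess of IGHV14-4 reads in knockout 1 stood beside few matching rearrangements. The sole TGTACT clonotype of knockout 1 had 8 of the 22 IGHV14 contig reads of that sample, against 1445 IGHV14-4 segment reads. Contigs with a complete CDR3 held only a small part of IGHV14 reads in every sample, with 22, 34, 8 and 17 contig reads beside 1799, 1681, 64 and 696 segment reads in knockouts 1 to 4, and 47, 100, 70 and 53 beside 2461, 2830, 2018 and 1905 in controls 1 to 4. The number of IGHV14 clonotypes per 1000 IGHV14 segment reads was 3.89 and 4.16 in knockouts 1 and 2, 5.75 in knockout 4, and 6.50 to 9.42 in the controls. Knockout 3 stood at 15.6 from 1 clonotype.

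The most read IGHV14 CDR3 of knockouts 1, 2 and 3 and of control 2 are shown as examples. The first 2 come from the samples with the most IGHV14-4 reads. That of control 2 is not typical of the controls, since the most read ones of controls 1, 3 and 4 began with TGTGCT. In knockout 4 the most reads were tied. They are written 5′ to 3′ from the cysteine codon, with the next codon in capitals.
Knockout 1, 8 reads: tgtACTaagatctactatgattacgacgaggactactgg
Knockout 2, 14 reads: tgtGCTcgagggtactactttgactactgg
Knockout 3, 8 reads: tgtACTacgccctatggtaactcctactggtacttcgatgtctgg
Control 2, 14 reads: tgtACTaggaacctctactttgactactgg

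The CDR3 of knockout 1 has 39 bases and was listed with IGHJ2, that of knockout 2 has 30 bases with IGHJ2 and IGHA, and that of knockout 3 has 45 bases with IGHJ1. That of control 2 has 30 bases with IGHJ2 and IGHA. The leading CDR3 of knockout 2, a sample with many IGHV14-4 reads, began with TGTGCT and not with TGTACT. In that sample IGHV14-2, whose germline start is TGTGCT, held 48.2% of IGHV14 reads, more than IGHV14-4 at 34.1%.

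The part of each contig before the CDR3 was also set against the germline V exons, over 24 to 62 bases. Within this reach the IGHV14 genes differ at only 1 position, where IGHV14-3 alone has A and the others have G. A call of IGHV14-3 against the other members therefore rests on 1 base. IGHV14-3 was the closest for 4 of 19 IGHV14 clonotypes in knockouts and 26 of 76 in controls. Of those closest to another IGHV14 gene, 6 in knockouts and 18 in controls began with TGTACT, and 8 in knockouts and 26 in controls with TGTGCT. The assembler itself listed IGHV14-3 alone for 33 of the 95 clonotypes, more than 1 gene for 62, and IGHV14-1, IGHV14-2 or IGHV14-4 alone for 0. The closest germline gene was outside IGHV14 or tied with such a gene for 1 clonotype in knockouts and 3 in controls.

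The length of the CDR3 was compared next. The mean length of IGHV14 CDR3s was 42.4, 31.7, 45 and 35.3 bases in knockouts 1 to 4, against 34.7, 33.2, 35.4 and 34.7 bases in controls 1 to 4, that of knockout 3 being from 1 clonotype. Over the 3 knockouts with at least 3 IGHV14 clonotypes the mean was 36.5 ± 5.46 bases (SD, n = 3), and over the 4 controls 34.5 ± 0.897 bases (SD, n = 4, exact permutation p = 0.686). The direction turned to -1.01 bases without knockout 1. The commonest length was 30 bases, or 10 codons, in 7 of 19 IGHV14 clonotypes of knockouts and 28 of 76 of controls. The commonest length of other families was 39 bases.

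The length of 30 bases was singled out after the values were seen. It held 14.3%, 85.7%, 0% and 0% of IGHV14 clonotypes in knockouts 1 to 4 and 56.3%, 36.0%, 36.8% and 18.8% in controls 1 to 4. Among clonotypes of the other families the same length held 5.43%, 4.32%, 4% and 2.82% in knockouts 1 to 4 and 5.76%, 3.06%, 4.88% and 6.07% in controls 1 to 4. IGHV14 was above the other families in 6 of 8 samples, in all 4 controls and in knockouts 1 and 2, and the other 2 samples had only 1 and 4 IGHV14 clonotypes. Over the 8 samples the share was 31.0% ± 29.4 for IGHV14 and 4.54% ± 1.21 for the other families (SD, n = 8 each), a difference of 26.4 percentage points that is a description with no test. The mean length was 36.5 ± 4.63 bases for IGHV14 and 40.3 ± 0.887 bases for the other families, lower in 6 of 8 samples (exact sign-flip permutation p = 0.0859). Pooled IGHV6 CDR3s were shorter still, with means of 35.2 bases over 11 in knockouts and 31.5 bases over 50 in controls, beside 37.1 and 34.4 bases for IGHV14.

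Leaving out 1 sample at a time kept the difference in 30-base CDR3s between 18.6 and 30.8 percentage points. The difference between IGHV14 and other families in this share was 20.9 ± 40.8 percentage points in knockouts and 32.0 ± 15.4 in controls (SD, n = 4 each). In pooled counts, 30-base CDR3s made up 36.8% of IGHV14 clonotypes in knockouts and 36.8% in controls. Clonotypes of 1 sample are not independent, so no interval is given for these pooled shares, and the shares per sample spread widely. Of the 7 in knockouts 6 came from knockout 2, and without it the knockout share was 1 of 12, or 8.33%. In other families they were 22 of 541, or 4.07%, in knockouts and 111 of 2231, or 4.98%, in controls. IGHV9 had 0 of 17 in knockouts and 3 of 100 in controls, and IGHV3 had 1 of 8 in knockouts and 7 of 43 in controls.

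**Figure D5:**
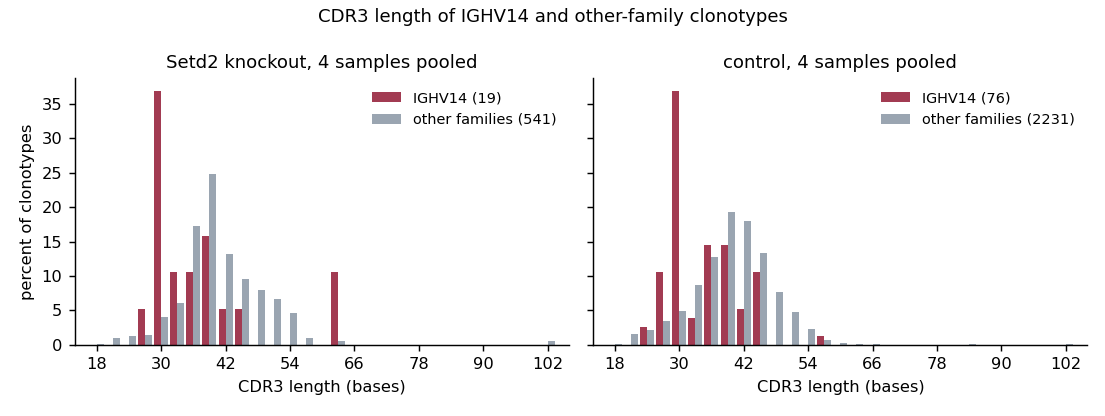
Length of complete CDR3 sequences (x axis, bases) as percent of clonotypes (y axis) for IGHV14 in red and all other families in grey, with the 4 knockout samples pooled at left, the 4 controls pooled at right, and the number of clonotypes in the legend. IGHV14 peaks at 30 bases with 36.8% in either group, 6 of the 7 such knockout clonotypes being from knockout 2, and the other families peak at 39 bases.

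The 35 IGHV14 CDR3s of 30 bases came from 6 samples and resembled each other across samples. Of these, 18 ended in the same 12 bases, tttgactactgg, which belong to the germline IGHJ2 segment, and 20 were listed with IGHJ2. TGTACT began 14 and TGTGCT began 20. Between samples, 46 pairs differed at up to 3 bases, or 9.50% of 484 pairs, and 19 of the 35 sequences took part in such a pair. Among 133 CDR3s of 30 bases in the other families, 34 ended in the same bases, and 13 of 3765 pairs between samples within a family, or 0.345%, differed at up to 3 bases. No test was made of this difference. Near-identical IGHV14 sequences within a sample, in 20 pairs, were each counted, and how alike the germline ends are within the other families was not compared. An example with this ending from each of the 6 samples is shown to let the likeness be seen, with the codon after the cysteine in capitals. Except in knockout 1, the examples are not the most read with this ending, which had up to 14 reads in knockout 2 and control 2. They do not show how alike the 18 sequences are as a set.
Knockout 1, 3 reads: tgtGCTagaaactggtactttgactactgg
Knockout 2, 5 reads: tgtGCTagagggtactactttgactactgg
Control 1, 2 reads: tgtACTagaaattacttctttgactactgg
Control 2, 3 reads: tgtGCTagaaactactactttgactactgg
Control 3, 2 reads: tgtGCTaggaattactactttgactactgg
Control 4, 2 reads: tgtGCTagaaattactactttgactactgg

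Exact sharing between samples was rare. Of 94 distinct IGHV14 CDR3 sequences, 1 was found in more than 1 sample, in controls 2 and 4.
Controls 2 and 4: tgtGCTgggacgaggtttgcttactgg

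Whether near-identical clonotypes within a sample are separate joining events was not tested. Pairs at up to 3 differences within a sample joined 4 of 7 IGHV14 clonotypes in knockout 2, 2 of 4 in knockout 4, 0 in knockouts 1 and 3, and 6 of 16, 13 of 25, 11 of 19 and 5 of 16 in controls 1 to 4. With such sequences counted once, the difference in 30-base CDR3s between IGHV14 and the other families was 21.8 percentage points.

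J segments and constant regions were listed for part of the clonotypes. IGHJ2 was the most frequent J segment, in 9 of 19 IGHV14 clonotypes of knockouts and 24 of 76 of controls. IGHJ4 followed in 4 of knockouts and 14 of controls, IGHJ3 in 1 and 14, and IGHJ1 in 2 and 6, with none listed for 3 and 18. Each constant region that was listed was IGHA, the constant region of a class-switched isotype, in 5 of 19 IGHV14 clonotypes of knockouts and 15 of 76 of controls. The 5 knockout clonotypes with IGHA came from knockouts 2 and 4, with 2 and 3.

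Bases that differ from the closest germline V sequence were counted in the short part before the CDR3. At least 1 such difference stood in 6 of 19 IGHV14 clonotypes of knockouts, 5 of them in knockout 2, and in 37 of 76 of controls. Over all bases compared these were 9 of 823 bases in knockouts and 53 of 3318 bases in controls. Clonotypes listed with IGHA had such a difference in 10 of 20, or 1.69% of bases, and clonotypes with no listed constant region in 33 of 75, or 1.45% of bases. The source of these differences was not tested.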

How the data were processed

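Poly-A RNA of 8 samples was sequenced in 75-base single-end reads, per the labels' protocols. Reads were aligned with STAR 2.5.1 to mm10, per the submitters' processing notes, and heavy-chain contigs were assembled with TRUST, per the series design text. The deposited counts are whole reads per gene segment or contig with no normalization, per the file headers. The deposited expression score per contig was used only to check read numbers. Depth of the whole library is unknown, Setd2 transcripts were not analysed here, and Wilson intervals cover counting error only.

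IGHV counts with at least 10 reads over all samples were tested with edgeR 4.0.16 in R 4.3.3, library size being all IGHV reads, and with DESeq2 1.42.0 as an alternative. Per-sample readouts were compared by exact two-sided permutation tests, and CDR3 length of IGHV14 and other families by exact sign flips over samples, in Python 3.11.15 with numpy 2.4.6, pandas 2.3.3 and scipy 1.17.1. Plots used matplotlib 3.10.9. Tests were checked on simulated data. Clonotypes were counted as different complete CDR3s by their bases. Closest germline genes needed at least 20 bases before the CDR3. The named genes were the 4 members and the 5 VH genes of most similar share, and comparison families were IGHV9, IGHV3 and the other middle families. Members, lists and tests were chosen with earlier results of these data known.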

Additional observations from a re-analysis of the deposited data

Results flagged for a closer look

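The share of IGHV14-3 among IGHV14 reads was 15.6% in knockout 3, against 3.002% to 4.52% in the other 3 knockouts, a gap of 0.880 of the whole range of the group. It rests on 10 of 64 reads. About 1 in 20 such groups is marked in this way by chance alone.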

How the results depend on the processing

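Of 191 alternatives to summary results, 157 were the same, 13 turned the direction, 10 lost the threshold, 2 gained it and 9 moved a count. The same means that the direction and the side of the threshold were kept, or that a count of genes was unchanged. For the untested 30-base share, which has no threshold, it means a value that moved by less than the SD over samples. In exact permutation tests between groups, p cannot fall under 0.0571 with 1 sample left out, or under 0.125 with the block. The side of the 0.05 threshold was fixed in advance there, so these counts do not measure how firm a result is. The 2 that gained the threshold are 1 set of samples, all but knockout 3. With IGHV reads taken without the 3 most abundant other genes, the difference in family share was 0.968 percentage points. Leaving out 1 sample moved it from -1.32 to 0.774, the IGHV14-1 share within the family from -2.85 to 2.67 points, the IGHV14 share of clonotypes from -0.717 to 0.345 points, CDR3 length from -1.01 to 4.34 bases, and the log2 ratio of IGHV14 to IGHV3 from -0.17 to 0.38. The share of clonotypes turned to 0.258 points by contig reads and 0.0967 points with at least 2 reads. Clonotypes per sample differed by -2.19 to -1.53 (log2) with 1 sample left out and by -1.98 with 1 listed V gene, where the exact permutation p was 0.0571. The CDR3 length difference to other families ran from -5.06 to -2.97 bases with 1 sample left out and was -5.06 over samples with at least 3 IGHV14 clonotypes (exact permutation p = 0.0313). The untested difference in 30-base CDR3s ran from 18.6 to 30.8 points with 1 sample left out. The cause of each was not tested.

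The number of IGHV14 genes called was 1 with locus reads as library size (IGHV14-3), 1 with DESeq2 (IGHV14-4) and 0 otherwise. IGHV genes called numbered 26 of 130 with locus reads, 6 with no low-count filter, 2 at 100 reads or more, 5 with DESeq2, and 0 to 5 with 1 sample left out, 4 without knockout 2 and 5 without control 4. The IGHV14-1 log2 fold change was 0.50 with TMM and 0.48 with DESeq2 and ran from -0.98 to 0.14 with 1 sample left out, turning to 0.08 without knockout 1, 0.14 without knockout 4 and 0.05 without control 1. That of IGHV14-2 was 0.16 with TMM and 0.14 with DESeq2.

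Deviations of same-numbered samples from the group means correlated by 0.175, 0.148, 0.0882 and 0.0985, not all over 0.1, so the numbers were not taken as pairs. That 3 of 4 knockouts correlated best with their own number is a hint from the data and not from the design. With the replicate number as a block, 15 IGHV genes and 0 IGHV14 genes were called, IGHV14-4 had a log2 fold change of 0.84, and the clonotype difference of -1.97 had an exact permutation p of 0.125, the smallest possible. Depth limits knockout 3 most, with 64 IGHV14 reads and 1 clonotype.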
